A study of Mus musculus with 12 samples.

Results

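In inguinal white adipose tissue (iWAT), 14904 autosomal genes were tested. Of these, 117 were called, by the thresholds below, as differing between ambient and cold libraries in the size or direction of the genotype difference. The genotypes compared were Bmal1 knockout (bBMKO) and control (bBMCtr). The interaction was computed for each gene as the difference between bBMKO and bBMCtr libraries in the cold minus the same difference at ambient temperature, on the log2 scale. A positive value therefore means that the gene was relatively higher in bBMKO in the cold than the ambient difference would give. The deposited table held 24091 genes, of which those with FPKM above 0.1 in 50% or more of the 12 libraries were analysed. To be called, a gene needed an interaction beyond 1.5-fold, an unadjusted p below 0.05 and, by edgeR's quasi-likelihood test over all genes, a p adjusted by Benjamini-Hochberg below 0.25. The called genes made up 0.785% of those tested, with 26 positive (0.174%) and 91 negative (0.611%). By the unadjusted p alone 1186 genes (7.96%) were below 0.05, and 24 (0.161%) had an adjusted p below 0.05.

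The bBMKO mice carried a Prx1-Cre transgene on a floxed Bmal1 background (Prx1-Cre+, Bmal1 fl/fl), and the bBMCtr mice were littermates with the same floxed alleles and no Cre (Prx1-Cre-, Bmal1 fl/fl), all C57BL/6. Prx1-Cre acts in the progenitors and mature fat cells of subcutaneous depots, so immune, vascular and epithelial cells of the depot were not its intended targets. Tissue came from 3 mice per genotype at 22 °C and from 3 per genotype kept at 10 °C for 2 weeks. Each mouse gave 1 RNA-seq library.

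Bmal1 (gene symbol Arntl) pairs with Clock, and the dimer binds E-box elements to drive clock output genes, among them repressors that shut it off again. Inguinal fat is a beige depot: in the cold, sympathetic input raises lipolysis and induces Ucp1-bearing fat cells. The inguinal pad also contains a lymph node, peripheral nerve, blood vessels and, in female mice, the ducts of a mammary gland, and it lies against skeletal muscle.

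The libraries held 17887795 to 21436282 counts. They differed in more than genotype and temperature. Xist, the RNA of the inactive X chromosome, was at 1313 to 1519 CPM (counts scaled to a common TMM-normalised library size) in the 6 ambient libraries and at 0.53 to 2.99 CPM in the 6 cold ones, while the Y-linked Ddx3y was at 0 to 4.53 CPM and at 97.3 to 128 CPM. Ambient libraries thus had the pattern of female mice and cold libraries that of male mice, and the labels record no sex. Legends of the study name male mice for an ambient RNA-seq comparison and female mice for one of both temperatures. The ambient libraries went against the former and the cold libraries against the latter. Ages also differ by source, from 6 weeks in a legend on the ambient RNA-seq to 10 to 12 weeks in the methods for cold acclimation. Temperature and sex cannot be told apart in these data, nor can any difference in age, so each interaction below is one of genotype with the whole set of conditions that separates ambient from cold libraries. Summed mammary epithelial markers lay between 1755 and 3511 CPM in ambient libraries and between 125 and 175 CPM in cold ones. Keratins of the ducts were near 0 in the cold, with Krt14 at 0 to 0.11 CPM, and the milk protein gene Wap had no counts in any library. Summed B and T lymphocyte markers lay between 1355 and 2193 CPM in cold bBMCtr and between 33.8 and 86.8 CPM in cold bBMKO, without overlap. At ambient temperature they ranged from 56.3 to 2483 CPM in bBMCtr and from 49.7 to 728 CPM in bBMKO. Skeletal muscle markers ranged from 143 to 13000.2 CPM over all libraries. In bulk tissue, fewer cells of a type and less RNA per cell give the same reading.

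**Figure D1:**
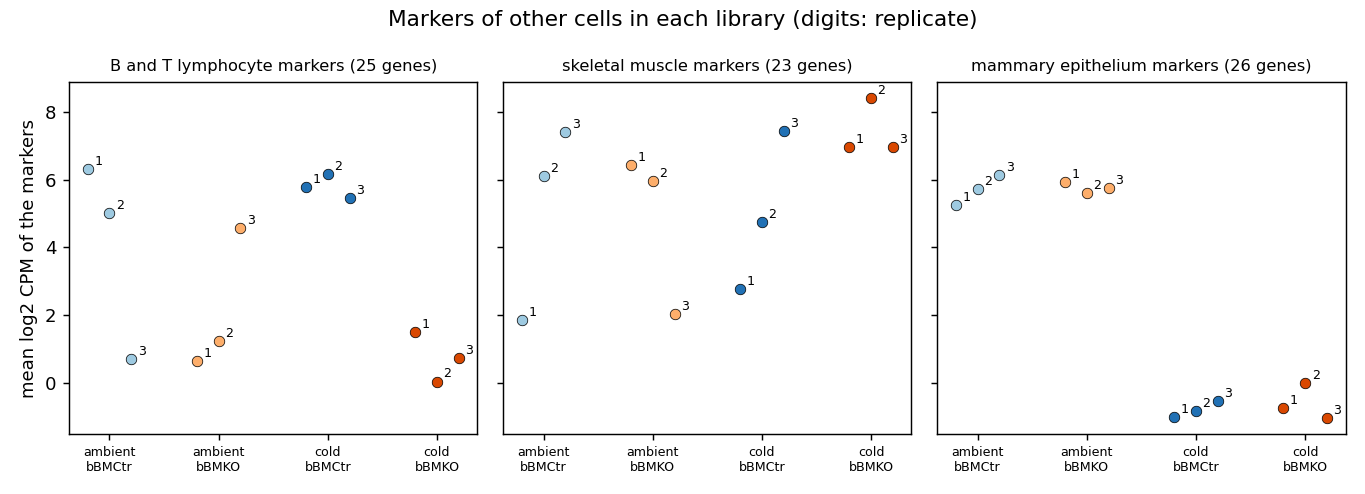
Mean log2 CPM of 25 B and T lymphocyte, 23 skeletal muscle and 26 mammary epithelial marker genes in each library, with 1 point per library and its replicate number beside it. Lymphocyte markers separated the genotypes in the cold but not at ambient temperature, and mammary markers separated the temperatures.

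The called genes were sorted by which of the genotype comparisons passed the same thresholds. Genotype alone was called for 3401 genes in the cold (22.8%), 1446 higher (9.7%) and 1955 lower (13.1%) in bBMKO, and for 1288 at ambient temperature (8.64%), 576 higher (3.86%) and 712 lower (4.78%). Of the 117 interaction genes, 80 had a genotype difference called in the cold only, 5 at ambient temperature only, 6 at both in opposite directions, 21 at both in the same direction and 5 at neither temperature. Without regard to the interaction, 2433 genes (16.3%) passed in the cold and not at ambient temperature, 320 (2.15%) at ambient temperature and not in the cold, 959 (6.43%) at both with the same sign and 9 (0.0604%) at both with opposite signs. For most of these the difference between temperatures was not called. All 21 genes of the same-direction class had the larger difference in the cold.

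**Figure D2:**
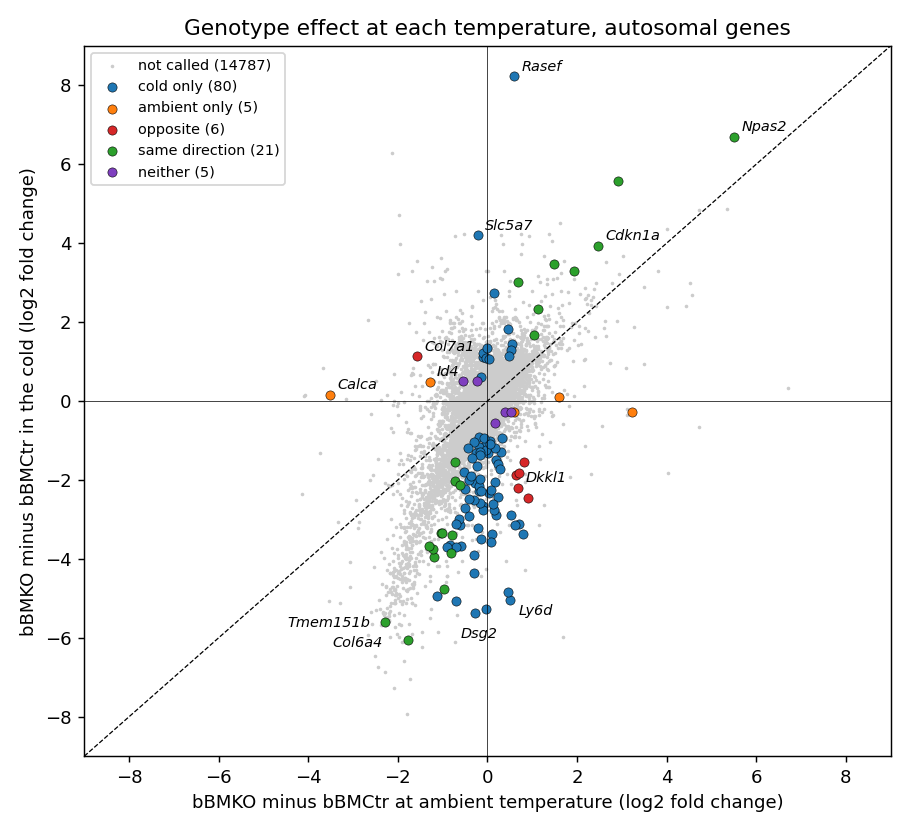
Log2 fold change of bBMKO over bBMCtr at ambient temperature (horizontal axis) and in the cold (vertical axis) for 14904 autosomal genes, with the 117 called genes coloured by pattern. Points on the dashed line have the same genotype effect at both temperatures. Most coloured points lie below 0 on the vertical axis and near 0 on the horizontal one.

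Genes lower in bBMKO in the cold only were the largest class, with 67 members. Their median interaction was -2.23, from a median genotype difference of -0.16 at ambient temperature and -2.44 in the cold. Over all autosomal genes the median interaction was 0.02. In the cold, bBMKO and bBMCtr libraries did not overlap for any of the 67, but this was also so for 56.6% of all genes tested, and the comparison was used to place them in the class. At ambient temperature 9 of the 67 did not overlap, against 21% of all genes. The class requires that no ambient difference was called, so a low share there is partly built in as well. Levels of these genes also differed between temperatures: 35 fell with cold in bBMCtr (11.3% of all genes fell) and 66 fell with cold in bBMKO (12.4%). The interaction is also the cold effect in bBMKO minus that in bBMCtr, so a fall in bBMKO is largely built into the choice of these genes and nothing is read from that count.

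Dsg2, a desmosomal cadherin that joins epithelial cells, had the smallest p. Its level was 41.6, 45.5 and 56.5 CPM in ambient bBMCtr and 38.7, 32.8 and 46.9 CPM in ambient bBMKO. The cold levels were 10.2, 10.7 and 10.6 CPM in bBMCtr and 0.23, 0.34 and 0.17 CPM in bBMKO. The genotypes overlapped at ambient temperature, whereas every cold bBMKO library lay far below every cold bBMCtr library. The interaction was -5.10 (standard error 0.30, edgeR adjusted p = 8.74e-05), with genotype differences of -0.28 (adjusted p = 0.32) at ambient temperature and -5.37 (adjusted p = 2.29e-06) in the cold.

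Ly6d, a surface protein of early B cells and of stratified epithelia (chromosome 15, 74762056 to 74763567, mm10), was at 89.0, 62.8 and 63.5 CPM in ambient bBMCtr and 108, 84.3 and 113 CPM in ambient bBMKO. Cold bBMCtr libraries held 31.9, 38.7 and 26.6 CPM and cold bBMKO libraries 1.58, 0.52 and 0.83 CPM. Its interaction was -5.55 (standard error 0.41, edgeR adjusted p = 0.000449). Lad1, a protein of the anchoring filaments under epithelia, gave 27.7, 29.4 and 38.0 against 26.4, 24.6 and 26.8 CPM at ambient temperature, and 7.5, 5.16 and 5.50 against 0.35, 0.34 and 0.50 CPM in the cold, bBMCtr before bBMKO. As for Dsg2, the ambient difference was small beside the cold one, and the interaction was -3.61 (standard error 0.28, edgeR adjusted p = 0.000548).

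Vipr1, a receptor for vasoactive intestinal peptide found on T cells and many epithelia (chromosome 9, 121642716 to 121672954), was at 44.9, 39.7 and 32.6 CPM in ambient bBMCtr, and its ambient bBMKO values of 33.5, 43.6 and 48.3 CPM fell in the same range. In the cold the bBMCtr libraries had 12.8, 18.1 and 11 CPM and the bBMKO libraries 1.34, 1.67 and 1.05 CPM, an interaction of -3.46 (standard error 0.33, edgeR adjusted p = 0.0027). Several others were picked out after their values had been seen. Ildr1, a protein of tricellular junctions, had an interaction of -3.35, St14, the epithelial serine protease matriptase, of -2.67, and Celsr1, a planar polarity cadherin, of -2.22. Ezr, which links membranes to actin, gave -2.56, Cd24a, a glycoprotein of immature B cells and epithelia, -1.68, and the chemokine Cxcl14 -1.83. Adjusted p-values of these 6 genes in edgeR lay between 0.00877 and 0.0499. Exons of Ezr overlap those of Sytl3 on the other strand, and both were called. Whether counting used strand is not given in the sources used here, so reads of such a pair cannot be assigned with certainty.

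The lists of markers bear on this class. Of its 67 genes, 1 was on a marker list fixed for other cells, Epcam, the adhesion molecule of simple epithelia. Epcam stood at 87.9 to 187 CPM in the ambient libraries, at 1.71, 2.30 and 1.65 CPM in cold bBMCtr and at 0.29, 0.57 and 0.06 CPM in cold bBMKO, an interaction of -2.73 (standard error 0.61, edgeR adjusted p = 0.193). It was the 1 called gene of the 26 on the mammary epithelial list, of which 18 had estimates above 0, with a median of 0.66. By the genotype test in the cold, 3 of these 26 were higher in bBMKO (9.7% of all genes were) and 3 lower (13.1%). Their mean log2 CPM lay between -1.04 and -0.01 in the cold libraries. A cold genotype difference was therefore hard to detect for members near 0, and nothing is read from these counts or the median. None of the 25 lymphocyte markers was itself called (0.785% of all genes were), although all 25 estimates were below 0 with a median of -3.0, and all 25 were lower in cold bBMKO than in cold bBMCtr by the genotype test, against 13.1% of all genes. When mean lymphocyte marker expression entered the fit as a covariate, 43 of the 67 genes were still called. With lymphocyte and mammary markers together, a fit added after seeing the data, 39 were. Lymphocyte markers did not overlap between genotypes in the cold, nor mammary markers between temperatures, so these fits cannot fully separate marker level from group. Each covariate also had the same slope in all libraries, so it cannot fully adjust a gene read from different cells at each temperature. An estimate that stayed alike in these fits therefore does not decide the cell source, which was not tested. Dsg2 had -5.16 (adjusted p = 0.000786) and -5.04 (adjusted p = 0.000126) in these fits, Ly6d -5.32 (adjusted p = 0.000939) and -5.40 (adjusted p = 0.00198), and Vipr1 -3.17 (adjusted p = 0.00521) and -3.16 (adjusted p = 0.0126). In the first of these fits Epcam kept its call at -3.14 (adjusted p = 0.132), while Sidt1, a putative RNA transporter, went from -3.81 (adjusted p = 0.162) to -3.0 (adjusted p = 0.428).

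Of 27 genes on the list of Srf, MRTF and their actin and cytoskeletal targets, 2 were called, both lower in bBMKO in the cold, where 0.785% of all genes were called and 0.611% with a negative interaction. Tes, a focal adhesion protein, was at 50.8, 42.7 and 40.6 CPM in ambient bBMCtr and 29.9, 28.6 and 34.6 CPM in ambient bBMKO. Cold bBMCtr gave 28.6, 34.9 and 26.7 CPM and cold bBMKO 8.35, 9.47 and 8.16 CPM, so the genotypes were apart at both temperatures and further apart in the cold. Its interaction was -1.27 (standard error 0.18, edgeR adjusted p = 0.0338). Actn1, the actin cross-linker alpha-actinin, had an interaction of -0.75 (standard error 0.17, adjusted p = 0.2). The median of this list was 0.10. Srf itself had an interaction of 0.02 (standard error 0.19, adjusted p = 0.976) and Mkl1, its coactivator MRTF-A, of -0.62 (standard error 0.28, adjusted p = 0.633). Tes was also on a list of matrix genes that the study chose on these samples, which is not independent evidence of its direction.

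The opposite side of the cold-only class had 13 genes that were higher in bBMKO, with a median interaction of 1.23. Rasef, a Rab-like GTPase with an EF-hand domain (chromosome 4, 73714579 to 73790713), showed the widest contrast. It was at 30.2, 18.7 and 26.9 CPM in ambient bBMCtr and 38.2, 52.0 and 24.4 CPM in ambient bBMKO. Cold bBMCtr libraries had 2 counts between them, or 0, 0.05 and 0.05 CPM, against 14.0, 5.28 and 16.8 CPM in cold bBMKO. The genotype ratio in the cold was 361 (95% counting interval 99.6 to 2991), an interval that covers counting error only and not differences between mice. The interaction had an adjusted p of 0.0128 in edgeR.

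Hilpda, which coats lipid droplets and inhibits the lipase Pnpla2 (chromosome 6, 29272488 to 29275449), was at 6.51, 4.97 and 6.89 CPM in ambient bBMCtr and at 9.26, 7.84 and 8.35 CPM in ambient bBMKO. Cold libraries had 4.98, 4.69 and 4.43 CPM in bBMCtr and 14.9, 20.7 and 14.4 CPM in bBMKO. Genotypes did not overlap at either temperature, and the interaction was 1.36 (standard error 0.24, edgeR adjusted p = 0.0812). Slc6a12, the betaine and GABA transporter, gave 1.63, 2.17 and 2.05 against 1.63, 1.93 and 1.89 CPM at ambient temperature and 3.07, 2.96 and 3.31 against 6.89, 6.60 and 8.43 CPM in the cold, an interaction of 1.33 (standard error 0.24, edgeR adjusted p = 0.0812).

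Among the other members, Slc5a7, the choline transporter of cholinergic neurons, was at 0.15, 0.85 and 1.17 CPM in cold bBMCtr and at 4.67, 23.4 and 11.9 CPM in cold bBMKO, with an interaction of 4.41 (standard error 0.94, edgeR adjusted p = 0.16). Sesn2, a stress-induced inhibitor of mTORC1 signalling, had 0.67 (adjusted p = 0.233). Ntn1, the axon guidance factor netrin-1, had 1.12 (adjusted p = 0.119) and Nog, the BMP antagonist noggin, 2.59 (adjusted p = 0.193), both named after their values were seen. The processed pseudogene Rpl14-ps1 was called at 1.23 (adjusted p = 0.0499), and it shares sequence with Rpl14, whose own interaction was -0.26 (adjusted p = 0.657), so its reads are uncertain.

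**Figure D3:**
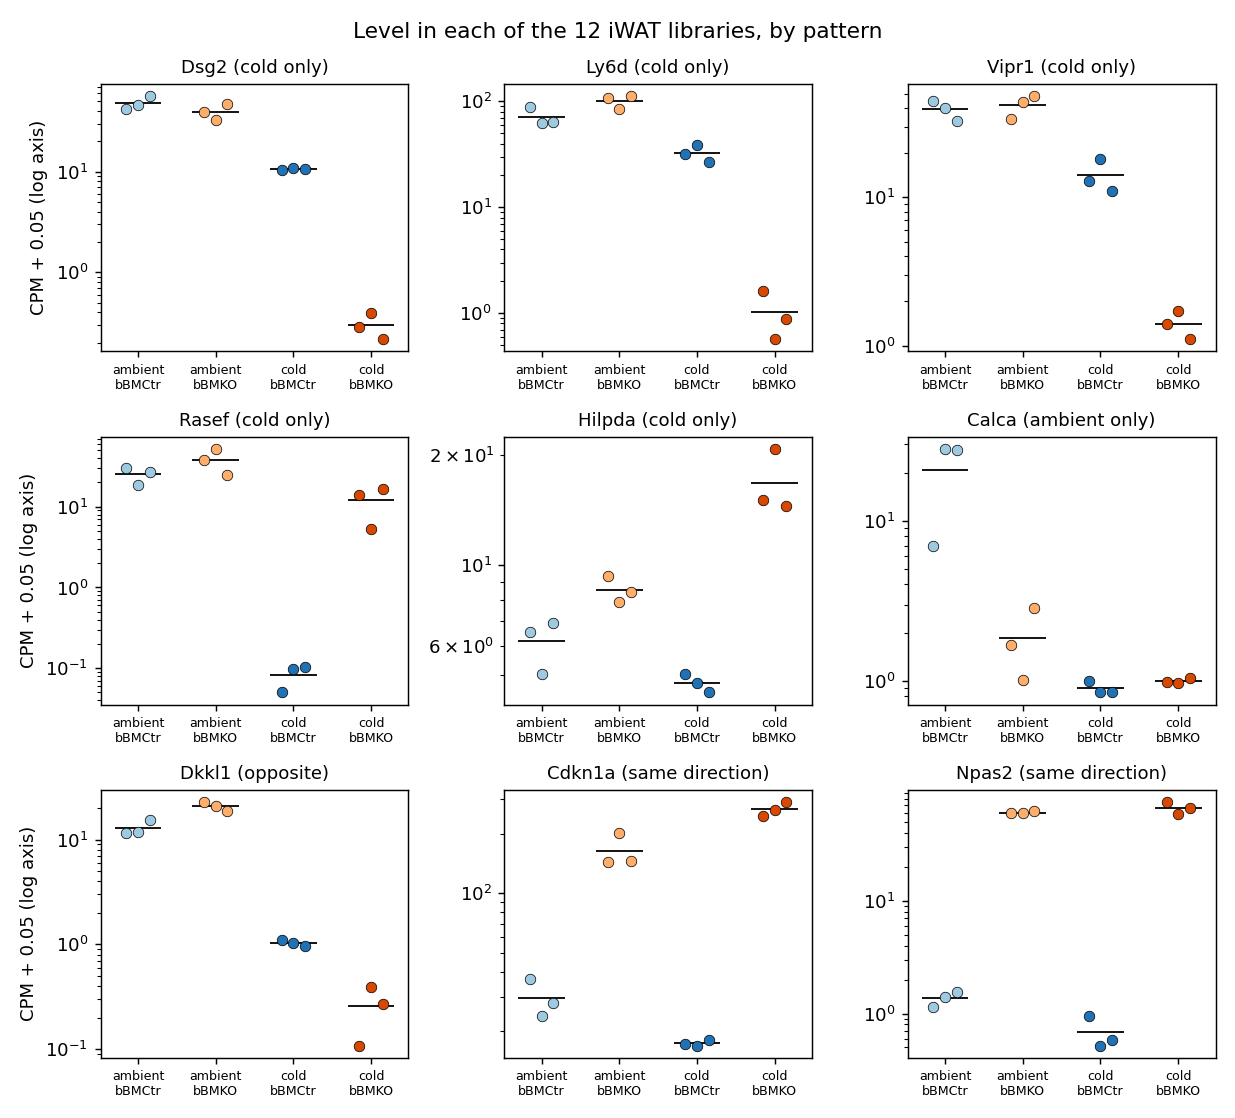
CPM plus 0.05 on a log axis for 9 genes in the 12 libraries, with 1 point per library and a line at the group mean. Dsg2, Ly6d and Vipr1 are lowest in cold bBMKO, Rasef is near 0 in cold bBMCtr alone, Calca is high in ambient bBMCtr only, and Cdkn1a and Npas2 are high in bBMKO at both temperatures.

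Ambient-only differences were few, with 2 positive and 3 negative interactions. Calca, which encodes calcitonin and the sensory neuropeptide CGRP, was at 6.95, 28.0 and 27.4 CPM in ambient bBMCtr and 1.63, 0.97 and 2.81 CPM in ambient bBMKO. All 6 cold libraries lay between 0.80 and 1.0 CPM. The interaction of 3.67 (standard error 0.76, edgeR adjusted p = 0.151) came from a genotype difference of -3.52 (adjusted p = 0.00566) at ambient temperature, while the cold difference was 0.16 (adjusted p = 0.851). Id4, an inhibitor of basic helix-loop-helix factors, was at 14.1, 16.9 and 29.1 CPM in ambient bBMCtr against 9.56, 8.71 and 6.37 CPM in ambient bBMKO, and at 5.73 to 9.82 CPM in the cold, giving an interaction of 1.78 (standard error 0.37, edgeR adjusted p = 0.159). Lpin2, a phosphatidate phosphatase of triglyceride synthesis, went the other way. Lpin2 was at 58.1 to 65.8 CPM in ambient bBMCtr and 82.6 to 110 CPM in ambient bBMKO, with an interaction of -0.86 (adjusted p = 0.15). 4930506C21Rik had 1 count in ambient bBMCtr against 13 in ambient bBMKO.

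In the opposite class, 5 genes were higher in bBMKO at ambient temperature and lower in the cold, and 1 the reverse. Dkkl1, a secreted protein related to the Wnt inhibitor Dkk3, was at 11.5, 11.7 and 15.2 CPM in ambient bBMCtr and 22.7, 20.7 and 18.5 CPM in ambient bBMKO. The order turned in the cold, with 1.06, 0.99 and 0.91 CPM in bBMCtr and 0.06, 0.34 and 0.22 CPM in bBMKO. Its interaction was -2.89 (standard error 0.43, edgeR adjusted p = 0.0405), and Dkkl1 also belonged to a list of fat cell differentiation genes that the study had picked from these samples.

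Ccdc92, a centriolar protein, and Cntn1, a neural adhesion molecule, followed the same course. Ccdc92 was at 9.46 to 12.5 CPM in ambient bBMCtr and 17.2 to 18.0 CPM in ambient bBMKO, and at 2.40 to 3.66 CPM against 0.47 to 0.98 CPM in the cold, an interaction of -2.50 (standard error 0.34, edgeR adjusted p = 0.03). Cntn1 had an interaction of -2.52 (standard error 0.35, adjusted p = 0.03). Arg2, the mitochondrial arginase, rose from 23.9 to 30.6 CPM in ambient bBMCtr to 44.3 to 53.8 CPM in ambient bBMKO and stayed under 0.5 CPM in every cold library, so the cold side of its pattern rests on few counts. Pls1, an actin-bundling protein of microvilli, had -3.38 (adjusted p = 0.147). Col7a1, the anchoring fibril collagen, was the 1 gene with the reverse order: 23.4, 47.4 and 114 CPM in ambient bBMCtr against 18.9, 21.9 and 21.0 CPM in ambient bBMKO, and 1.76, 1.60 and 2.29 against 3.91, 3.73 and 4.77 CPM in the cold. Its interaction was 2.71 (standard error 0.66, edgeR adjusted p = 0.246). All 6 of these genes fell with cold in both genotypes.

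Same-direction genes comprised 8 that were higher in bBMKO and 13 that were lower. Cdkn1a, the cyclin-dependent kinase inhibitor p21 (chromosome 17, 29090979 to 29100722), was at 37.0, 23.7 and 27.8 CPM in ambient bBMCtr and 143, 201 and 146 CPM in ambient bBMKO. In the cold it reached 244, 264 and 289 CPM in bBMKO and stood at 17.2, 16.9 and 18.0 CPM in bBMCtr. The genotypes were far apart at both temperatures, and the log2 difference widened from 2.47 (adjusted p = 0.000142) to 3.93 (adjusted p = 2.98e-06), an interaction of 1.47 (standard error 0.24, edgeR adjusted p = 0.0567).

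Of the 20 core clock genes, Npas2, the Clock paralogue that also pairs with Bmal1, was the 1 called, and 0.785% of all genes were. Its level was 1.08, 1.35 and 1.51 CPM in ambient bBMCtr against 59.6, 59.5 and 61.7 CPM in ambient bBMKO, and 0.91, 0.47 and 0.53 CPM against 74.7, 58.3 and 66.3 CPM in the cold. The bBMKO values were alike at both temperatures and the bBMCtr values were lower in the cold, giving an interaction of 1.18 (standard error 0.27, edgeR adjusted p = 0.211). The clock targets Nr1d1 (REV-ERBα) and Dbp had interactions of -0.68 (standard error 0.17, adjusted p = 0.288) and -0.22 (standard error 0.20, adjusted p = 0.718). Arntl had 0.19 (standard error 0.42, adjusted p = 0.885), and since its reads also come from exons that Cre does not remove, it is no check of the genotype labels.

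Osgin1, induced by oxidative stress, Dtx4, a ubiquitin ligase of the Deltex family, and Npnt, an integrin ligand of basement membranes, were the other strongly expressed members that were higher in bBMKO. Osgin1 rose from 7.99 to 9.69 CPM in ambient bBMCtr to 17.5 to 21.2 CPM in ambient bBMKO, and in the cold lay at 5.68 to 8.22 CPM and 31.2 to 39.4 CPM, an interaction of 1.22 (standard error 0.21, edgeR adjusted p = 0.0752). Dtx4 had 1.37 (adjusted p = 0.15) and Npnt 1.98 (adjusted p = 0.211). Entpd3, an ectonucleotidase, had 2.34 (adjusted p = 0.173), with under 1 CPM in every cold library. Among the 13 that were lower in bBMKO, Col6a4, a collagen VI chain, was at 15.2, 9.75 and 7.97 CPM against 1.93, 2.29 and 5.44 CPM at ambient temperature and at 10.1, 10.2 and 7.42 CPM against 0.29, 0 and 0.11 CPM in the cold. Its interaction was -4.29 (standard error 0.84, edgeR adjusted p = 0.122), and it too was on the study's own list of matrix genes. Tspoap1 (-2.30, adjusted p = 0.0809), the receptor kinase Ltk (-3.03, adjusted p = 0.0855) and the solute carrier Slc35f2 (-3.79, adjusted p = 0.086) were the next by p. Tmem151b had 1 count in the 3 cold bBMKO libraries against 74 in cold bBMCtr, a ratio of 0.0154 (95% counting interval 0.000385 to 0.0885).

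The 5 genes with neither genotype difference called had moderate effects of opposite sign. Cd200, a ligand that restrains myeloid cells, was at 106, 115 and 124 CPM in ambient bBMCtr and 157, 160 and 137 CPM in ambient bBMKO, and at 61.3, 57.2 and 61.4 CPM against 47.2, 53.9 and 46.8 CPM in the cold. Groups were apart at both temperatures, each by less than 1.5-fold, and the interaction was -0.68 (standard error 0.12, edgeR adjusted p = 0.084). Ppfibp2, a liprin (-0.82, adjusted p = 0.182), and Cntfr, a receptor for ciliary neurotrophic factor (-0.73, adjusted p = 0.2), went the same way. Lhx6, a LIM homeobox factor (1.05, adjusted p = 0.109), went the other way.

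Of the 117 called genes, 11 were on any of 38 lists, and 26 lists had none. With 0.785% of all genes called, lists of 20 to 35 genes would hold less than 1 called gene at that share, so a count of 0 is near the background and says nothing particular of a list. No gene was called among 24 brown and beige thermogenesis genes, whose median interaction was 0.41, among 35 of respiratory complex I (median 0.33), 27 of fatty acid oxidation (0.26), 20 of lipolysis and lipid droplets (0.10) or 21 of sterol synthesis and uptake (-0.15). Ucp1, the uncoupling protein of brown and beige fat, had an interaction of -1.51 with a standard error of 2.48 (adjusted p = 0.835). It was at 1.33, 0.10 and 0.32 CPM in ambient bBMCtr, 27.0, 13 and 0.74 CPM in ambient bBMKO, 7.85, 13.7 and 229 CPM in cold bBMCtr and 1553, 55.0 and 400.0 CPM in cold bBMKO. Libraries differed widely within every group, and with that spread an interaction of this size was not detectable. Dio2, the deiodinase that activates thyroid hormone, had -1.76 (standard error 0.66, adjusted p = 0.564), and Ppargc1a, the coactivator of mitochondrial genes, -0.08 (standard error 0.25, adjusted p = 0.916). The cell division list of 30 genes had a median of -0.91 and no call. Skeletal muscle markers had a median of 1.74 with all 23 estimates above 0, and none was called.

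Most calls were lost when some single library was left out. Leaving out each of the 12 libraries in turn, 36 of the 117 genes were called in all 12 fits (0.242% of the genes tested), 7 lost their call without exactly 1 library, 11 without 2 to 5 and 63 without 6 or more. No estimate of the 117 changed sign. Without a library the fit also has fewer residual degrees of freedom. By pattern, the interaction was called in every fit for 32 of 80 cold-only genes, 3 of 6 opposite genes and 1 of 21 same-direction genes. None of the 5 ambient-only or the 5 remaining genes was called in every fit. The class itself held in all 12 fits for 27 of the 80, 0 of the 6 and 1 of the 21. The 32 cold-only genes called in every fit were 29 lower and 3 higher in bBMKO in the cold: Rasef, Hilpda and Rpl14-ps1 were the 3 higher ones. Dsg2 (-5.40 to -4.88), Lad1 (-3.81 to -3.46), Vipr1 (-3.64 to -3.27), Rasef (7.11 to 8.02) and Cdkn1a (1.26 to 1.59) kept both call and class in all 12. Ly6d, Ccdc92, Cntn1 and Dkkl1 kept the call in every fit and the class in 10, 10, 11 and 9.

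**Figure D4:**
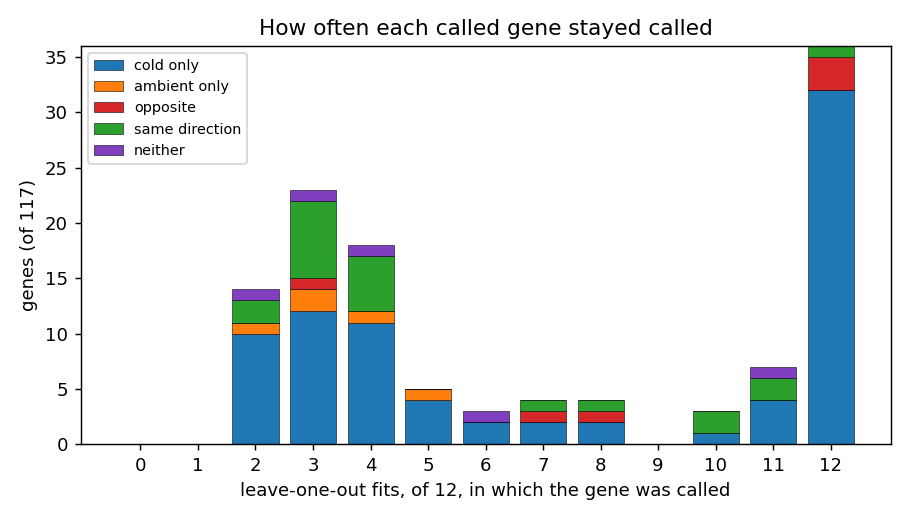
Number of leave-one-out fits, of 12, in which each of the 117 genes was called (horizontal axis) and number of genes (vertical axis), coloured by pattern. The bar at 12 holds 36 genes, of which 32 are cold-only, while ambient-only genes lie at 5 or below.

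In the weaker patterns a call ended without any of several libraries, and the library that moved an estimate most did not always end it. Calca ranged from 3.35 to 4.14 and was called in 3 of 12 fits, and Id4 ranged from 1.38 without ambient bBMCtr replicate 3, its highest library, to 1.96 and was called in 4. Lpin2 was called in 5. Col7a1 went from 2.71 to 1.90 without ambient bBMCtr replicate 3, where it was at 114 CPM, and was called in 3 fits. Slc5a7 went from 4.41 to 3.73 without cold bBMKO replicate 2, Epcam from -2.73 to -3.54 without that same library, and Tmem151b from -3.32 to -5.31 without cold bBMKO replicate 3, the only cold bBMKO library with a count. Id4, Col7a1, Epcam and Tmem151b were still called without the library that moved them most, whereas each lost its call without 8 or 9 others. Slc5a7 lost its call without that library and without 7 others. Npas2 (0.97 to 1.49), Dtx4, Entpd3, Sidt1 and Actn1 were each called in 3 fits and Sesn2 in 2. At the other end, Cd200 and Tspoap1 lost their calls only without cold bBMKO replicate 3.

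The number of calls moved most with 2 ambient libraries. Without ambient bBMCtr replicate 1 there were 1712 calls, 1076 negative and 636 positive, which included all 117 and 1595 further genes. Without ambient bBMKO replicate 2 there were 354, again including all 117. Leaving out any of the other 10 lowered the count, to between 41 (cold bBMKO replicate 3) and 86 (cold bBMCtr replicate 3). Ambient bBMCtr replicate 1 had the highest lymphocyte marker sum (2483 CPM) and the lowest skeletal muscle sum (143 CPM) of all 12 libraries, and ambient bBMKO replicate 2 the highest macrophage marker sum (5202 CPM) and the 1 ambient Ddx3y value of more than 1 CPM. Whether these features account for the change was not tested.

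**Figure D5:**
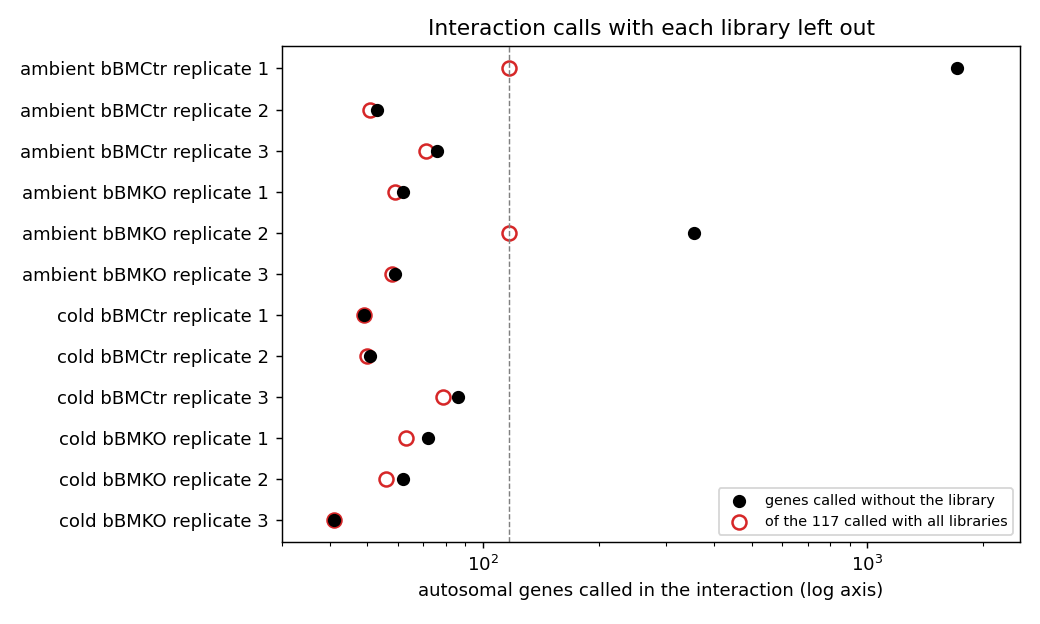
Autosomal genes called in the interaction when each library was left out (filled points, log axis) and how many of them were among the 117 called with all libraries (open circles). The dashed line marks 117, and the count rises to 1712 and 354 without ambient bBMCtr replicate 1 and ambient bBMKO replicate 2.

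Without ambient bBMCtr replicate 1, 1277 genes fell in the cold-only class, 118 in the ambient-only class, 19 in the opposite class, 71 in the same-direction class and 227 in none, and 11.5% of all genes were called. Calls then reached lists that had none or 1 with all libraries. They took in 14 of 35 Wnt and TGF-beta genes, all positive and Bmp7 among them, 8 of 22 collagen genes positive and 1 negative, 5 of 17 basement membrane genes, all positive, 7 of 22 immediate-early genes negative and 1 positive, and 13 of 25 lymphocyte markers, all negative. Other lists had no call in that fit, among them 35 genes of respiratory complex I, 38 of complexes II to V and 21 macrophage markers. Without ambient bBMKO replicate 2, 2.38% of all genes were called. Among the lists, 5 of 21 macrophage markers and 4 of 17 adipose progenitor markers were then called, all positive. So were 3 of 35 Wnt and TGF-beta genes, and 0 of 25 lymphocyte markers were. With all 12 libraries Bmp7, a BMP ligand that promotes brown fat formation, had an interaction of 1.43 (standard error 0.35, adjusted p = 0.252), just outside the threshold.

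The E-box was about as frequent in the promoters of called genes as in those of all genes tested. RefSeq windows of GRCm38.p6 from 250 bases before to 50 after the start were matched by symbol for 84 of the 117 genes and searched for its letters, CACGTG, which reads the same on both strands. It was present in 9 of the 84 (10.7%) and in 1246 of 11239 windows of all genes tested (11.1%), and in 6 of 47 windows of cold-only genes lower in bBMKO (12.8%). Pak1, a kinase of actin remodelling called in all 12 leave-one-out fits with an interaction of -1.24 (adjusted p = 0.0623), and Entpd3 are shown as examples, 1 of each direction. Pak1 was picked after its values had been seen. Each line gives the 200 bases before the start of the gene on the plus strand, chr7:97788341-97788540 for Pak1 and chr9:120539618-120539817 for Entpd3, with the E-box in capitals, 132 and 151 bases before the start. A match describes the letters and is not evidence of binding.
Pak1: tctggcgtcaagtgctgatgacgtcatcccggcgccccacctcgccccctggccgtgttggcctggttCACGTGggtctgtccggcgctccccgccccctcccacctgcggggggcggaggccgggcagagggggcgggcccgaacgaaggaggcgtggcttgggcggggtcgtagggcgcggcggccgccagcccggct
Entpd3: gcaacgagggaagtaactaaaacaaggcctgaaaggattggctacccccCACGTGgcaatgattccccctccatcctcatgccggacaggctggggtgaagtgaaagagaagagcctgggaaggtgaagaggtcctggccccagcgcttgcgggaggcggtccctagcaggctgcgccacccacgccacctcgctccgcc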

How the data were processed

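Single-read RNA-seq of iWAT was made from 12 mice, 3 in each of 4 groups taken from the sample labels. Per the study's methods, the authors used STAR to align reads to mm10 and HTSeq-count with GENCODE gene models to count uniquely placed reads, and they deposited these raw counts. The deposited log2 values are the authors' log2 FPKM with 0.1 added. Processing notes also name DESeq2, limma and edgeR. Neither versions nor the strand setting were found in the sources read.

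From the 24091 genes, 15413 had an FPKM over 0.1 in at least 50% of libraries. Their counts were scaled by TMM and fitted by glmQLFit and glmQLFTest in edgeR 4.0.16 (R 4.3.3) with 1 term per group, and p-values were adjusted over all 15413. Thresholds followed the study's methods: 1.5-fold, p under 0.05 and adjusted p under 0.25. The 14904 autosomal genes are reported, and the 509 X- and Y-linked ones, 1 of them called, are not, since sex differed between temperatures. The fit was tested on simulated data. It called 45 of 67 genes changed 2-fold, 56 of 67 changed 4-fold and 61 of 66 changed 8-fold. It also called 55 of 15213 unchanged genes. The changed genes were drawn only from those above a minimum mean count, with the change placed in cold bBMKO. Recovery at lower counts or for other patterns was not tested. P-values measure the spread between mice. No libraries within a group were duplicates (chi-square per gene 16.6 to 111). Sums of 17887795 to 21436282 counts per library make 1 count about 0.05 CPM.

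Members, the 38 gene lists and the tests were chosen with earlier results of these data known. Most genes were named by rule: per pattern and sign the 4 called genes with the smallest p, a highest group mean of at least 1 CPM and no predicted symbol, per pattern 2 whose call ended without 1 library, per list up to 3 called members or 1 uncalled, and a fixed set of clock, Srf and thermogenic genes. Others, Pak1 among them, were named outside this rule after their values were seen. The predicted symbol 4930506C21Rik is also outside it. Some called genes are not reported here. Exons of 39 called genes overlap another gene in GENCODE vM21. Alternatives were DESeq2 1.42.0, limma 3.58.1 on the log2 FPKM or with voom quality weights, other scalings, filters and thresholds, marker covariates, a replicate block and each library left out.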

Additional observations from a re-analysis of the deposited data

Results flagged for a closer look

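For each gene here the difference between genotypes changed between ambient and cold libraries in a direct test, the interaction term of edgeR's quasi-likelihood test. Those libraries also differed in the pattern of sex-linked genes, so temperature and sex cannot be told apart. In all, 117 genes passed the thresholds of the report. Of those named, 16 passed at the stricter adjusted p under 0.05. Interactions were negative for Ly6d (-5.55), Dsg2 (-5.10), Lad1 (-3.61), Vipr1 (-3.46), Ildr1 (-3.35), Dkkl1 (-2.89), St14 (-2.67), Ezr (-2.56), Cntn1 (-2.52), Ccdc92 (-2.50), Celsr1 (-2.22), Cxcl14 (-1.83), Cd24a (-1.68) and Tes (-1.27). They were positive for Rasef (7.64, a fitted value that depends on 2 counts in cold bBMCtr) and Rpl14-ps1 (1.23). Groups of 3 libraries were too small to test for a library far from the others.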

How the results depend on the processing

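No called gene changed sign under any alternative. Counts here are in the order total, positive and negative calls, then cold-only, ambient-only, opposite, same-direction and neither, beside 117, 26 and 91, then 80, 5, 6, 21 and 5. DESeq2 gave 281, 98 and 183, then 183, 16, 9, 55 and 18, and included 114 of the 117. Voom with quality weights gave 1643, 774 and 869, then 988, 147, 38, 248 and 222, and included all 117, with positive calls at 47.1% against 22.2%. An adjusted p under 0.05 with no fold minimum gave 24, 2 and 22, then 23, 0, 0, 1 and 0. Limma on log2 FPKM gave 75, 13 and 62, then 55, 5, 4, 7 and 4. The lymphocyte covariate gave 77, 10 and 67, then 57, 2, 5, 11 and 2, and lymphocyte and mammary markers together, added after seeing the data, 72, 12 and 60, then 51, 1, 6, 11 and 3. With the skeletal muscle covariate positive calls fell to 16 and the last class to 3, and with the mammary covariate the last class was 3. No filter left 17 positive and 13 same-direction calls, and library size alone 1 opposite call. RLE factors, edgeR's filterByExpr and adjustment over autosomal genes alone left all counts within 1.5 times. The cause of these changes was not tested.

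Leaving out 1 library gave 41 to 1712 calls, 5 to 636 positive and 35 to 1076 negative, with 33 to 1277 cold-only, 0 to 118 ambient-only, 1 to 20 opposite, 3 to 71 same-direction and 0 to 227 neither. Replicate numbers were shared between groups, but came from different mice, and same-numbered libraries did not deviate together (correlations -0.70 to 0.45, over 0.1 in 6 of 18 pairs). With the replicate block there were 57 calls, 12 positive and 45 negative, then 43, 0, 5, 6 and 3, of which 55 were among the 117.

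Estimates that changed sign belonged to uncalled genes near 0 or with a wide spread. Srf, at 0.02, was at -0.069 with library size alone, -0.0192 with no filter and -0.0767 on log2 FPKM. Without 1 library it ranged from -0.102 to 0.117. Arntl, at 0.19, was at -0.0167 on log2 FPKM and from -0.188 to 0.459 without 1 library, below 0 without ambient bBMCtr replicate 1. Ppargc1a, at -0.08, was at 0.0338 with voom, 0.00659 with both covariates and -0.31 to 0.0394 without 1 library. Ucp1, at -1.51, ranged from -3.07 to 1.44, the latter without cold bBMCtr replicate 3.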
